A study of Mus musculus with 66 samples.

Results

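The comparison set gastrocnemius muscle 2 days after it had been injected with cardiotoxin, a toxin from snake venom that breaks the membranes of muscle fibres, against untreated muscle, and took in 8 of the 66 arrays of a mouse regeneration time course. Messenger RNA was measured on 2 versions of an Affymetrix oligonucleotide array, the earlier A and the later Av2. On each version the 2 arrays labelled ctx2d were set against the 2 labelled con8wk, and a transcript was taken as changed on both versions where both tests passed in 1 direction. The controls were untreated muscle of mice 8 weeks old. The age of the injected mice is not in their labels, and a volume of 100 ul at 10 uM is stated for the A arrays of 2 d alone. Genotype and sex are not given in the labels, nor is it said that arrays of 1 group stand for different animals. No arm of these 8 arrays was injected without toxin, so the effects of the needle, the fluid and the toxin cannot be told apart. With unstated animals, the p-values measure only the spread between arrays of a group, pooled over all groups of a version, and this spread may be technical.

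The versions may share tissue. The controls carry the codes 1RL and 2LL on both versions, while the 2 d arrays carry 1RL and 2LL on Av2 and 5RL and 6LL on A. The difference between the 2 arrays of 2 d on Av2 correlated with the difference between those on A, with a Pearson r of 0.539 over 3286 probe sets, and the corresponding r for the controls was 0.28 over 3041 probe sets. These correlations are across probe sets, which are not independent. Agreement between the versions is therefore given as a repeated reading of the change, and not as independent replication.

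A skeletal muscle fibre is a long cell packed with sarcomeres, in which myosin thick filaments pull on actin thin filaments when calcium is released from the sarcoplasmic reticulum. Cardiotoxin destroys fibres while sparing many satellite cells, the resident stem cells from which new fibres form. Neutrophils and then monocytes and macrophages enter the tissue and clear the dead fibres before new ones mature. In a whole-tissue extract, fewer cells of a type and less RNA per cell cannot be told apart, and this holds for every result that follows.

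Muscle fibres use their own isoforms of many proteins that other cells also make, and several of these pairs divided at 2 d. Promoters of 5 such genes are shown because their transcripts were called in opposite directions on Av2. Pgam2, Pygm and Cfl2, muscle forms of phosphoglycerate mutase, glycogen phosphorylase and cofilin, were lower. Cox6a1 and Pfkp, broadly used forms of a cytochrome oxidase subunit and of phosphofructokinase, were higher. Pygm went from 47371 and 51543 to 5041 and 8600 on Av2. Its probe set on A was a different one and read 0 on the A arrays compared, controls included. On A, 2611 probe sets read 0 on every array, and such a 0 gives no comparison. Pfkp did not pass on A. Each sequence is the 250 bases before the transcription start in RefSeq's annotation of GRCm38.p6, read 5′ to 3′ on the strand of the gene. Capitals mark 3 motifs on either strand: the E-box CAGCTG that MyoD proteins can bind, the MEF2 motif TAAAAATA, and the GC box GGGCGG. The windows are chr11:5803797-5804046 on the minus strand for Pgam2, chr19:6384158-6384407 on the plus strand for Pygm, chr12:54862878-54863127 on the minus strand for Cfl2, chr5:115348959-115349208 on the minus strand for Cox6a1 and chr13:6648772-6649021 on the minus strand for Pfkp.
Pgam2: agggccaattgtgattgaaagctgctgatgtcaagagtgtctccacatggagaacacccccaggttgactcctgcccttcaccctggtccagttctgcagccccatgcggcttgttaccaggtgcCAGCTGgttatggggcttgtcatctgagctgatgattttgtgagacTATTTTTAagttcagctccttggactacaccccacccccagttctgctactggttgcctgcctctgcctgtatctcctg
Pygm: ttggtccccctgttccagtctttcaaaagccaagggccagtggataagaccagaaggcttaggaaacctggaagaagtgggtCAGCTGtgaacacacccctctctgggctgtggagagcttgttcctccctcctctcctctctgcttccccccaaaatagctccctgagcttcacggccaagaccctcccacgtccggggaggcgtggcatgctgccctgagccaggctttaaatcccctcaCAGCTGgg
Cfl2: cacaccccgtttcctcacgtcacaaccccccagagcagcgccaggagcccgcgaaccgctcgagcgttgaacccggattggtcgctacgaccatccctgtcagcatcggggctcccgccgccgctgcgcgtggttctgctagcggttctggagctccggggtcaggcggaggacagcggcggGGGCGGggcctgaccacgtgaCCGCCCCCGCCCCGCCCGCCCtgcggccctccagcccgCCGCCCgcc
Cox6a1: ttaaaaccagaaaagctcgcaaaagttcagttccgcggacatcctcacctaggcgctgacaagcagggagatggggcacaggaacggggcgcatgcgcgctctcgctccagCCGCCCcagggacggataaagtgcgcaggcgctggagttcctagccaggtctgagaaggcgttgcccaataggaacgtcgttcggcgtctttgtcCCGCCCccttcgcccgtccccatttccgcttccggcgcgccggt
Pfkp: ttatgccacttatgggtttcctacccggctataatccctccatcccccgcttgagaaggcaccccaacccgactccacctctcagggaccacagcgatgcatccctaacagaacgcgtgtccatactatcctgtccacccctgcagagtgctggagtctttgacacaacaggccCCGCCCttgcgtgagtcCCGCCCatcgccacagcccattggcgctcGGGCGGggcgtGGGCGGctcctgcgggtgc

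The Pgam2 window holds CAGCTG 125 bases and the MEF2 motif 79 bases before the start, and the Pygm window holds CAGCTG 168 and 8 bases before it. The Cfl2 window has no CAGCTG and 6 GC boxes, some of them overlapping. Other forms of the E-box were not searched for. GC boxes lie 139 and 44 bases before the start of Cox6a1, and 76, 59, 30 and 19 bases before that of Pfkp. Of the muscle isoforms fixed for comparison, 14 of 19 had a promoter in the table, of which 6 held CAGCTG, 1 held TAAAAATA and 4 held GGGCGG. Of the broadly used isoforms, 15 of 19 had a promoter, of which 0 held CAGCTG, 0 held TAAAAATA and 9 held GGGCGG. Over all 32851 promoters of this length, 13% held CAGCTG, 2.5% held TAAAAATA and 32.7% held GGGCGG. Among the genes lower on both array versions, 622 of 762 had a promoter, and 10.9%, 1.6% and 62.1% of these held the motifs in that order. Among the genes higher on both, 639 of 765 had one, and the shares were 9.7%, 0.5% and 59.0%. Over all genes tested on both versions they were 10.8%, 1.2% and 59.9%, so none of the 3 motifs separated the genes that were lower from those that were higher by more than a few percentage points. A match is a description of these letters, not a site shown to be used.

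On Av2, 4196 of 11997 probe sets tested passed at 2 d, which is 35.0%, with 2236 higher (18.6%) and 1960 lower (16.3%). On A, 2305 of 4742 passed, which is 48.6%, with 1121 higher (23.6%) and 1184 lower (25.0%). Of the 4742 probe sets tested on both versions, 1851 passed on both in 1 direction, or 39.0%, with 944 higher (19.9%) and 907 lower (19.1%). The test was limma's moderated test with Benjamini-Hochberg adjustment and a threshold of 0.05. The sizes agreed within 2-fold for 1087 of the 1851, differed by more for 29, and were only bounds for 735, because a group lay at the detection floor on both arrays. The floor was an intensity of 64.68 on Av2 and 646.8 on A, and lower values were raised to it. A further 9 probe sets passed in opposite directions on the versions. By gene, 765 of 3882 genes were higher on both versions (19.7%) and 762 were lower on both (19.6%), against 1708 higher (21.1%) and 1506 lower (18.6%) of 8087 on Av2 alone, and 904 higher (23.3%) and 997 lower (25.7%) of 3882 on A alone. The median change over all genes tested was 0 on the log2 scale on both versions.

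**Figure D1:**
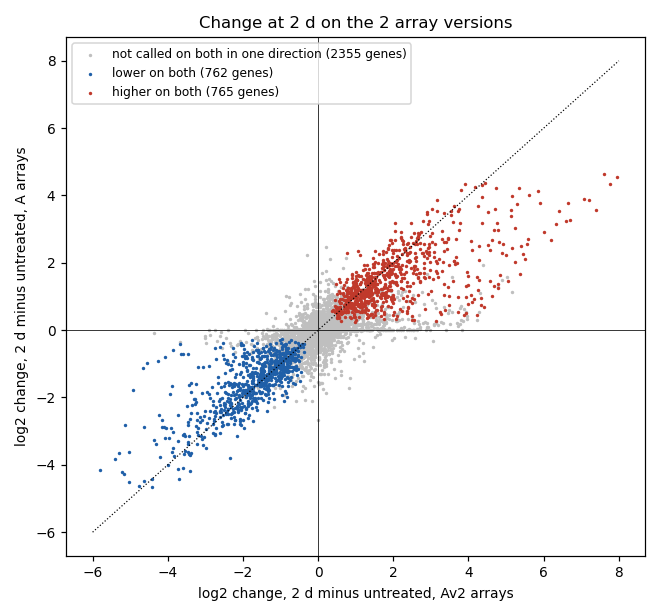
Log2 change at 2 d minus untreated on the Av2 arrays (horizontal axis) against the A arrays (vertical axis), with 1 point per gene tested on both versions. Blue points are the 762 genes lower on both, red points the 765 higher on both and grey points the rest. The dotted line marks equal change, and the largest rises on Av2 lie below it, with a floor of 646.8 on A and 64.68 on Av2.

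The 8 arrays were alike in scale. Median intensities were 304 to 334 on Av2 and 139 to 150 on A, and 78.5% to 80.1% and 26.9% to 28.1% of probe sets lay above the floors. Control probe sets lie at the 3′ and 5′ ends of some transcripts, and those for beta-actin moved with the groups. On Av2 the 3′ set went from 27733 and 36489 in the controls to 529 and 666 at 2 d. The 5′ set went from 38272 and 34520 to 9404 and 19985. The 3′ to 5′ ratio on Av2 was 0.725 and 1.06 in the controls and 0.0562 and 0.0333 at 2 d. On A it was 1.14 and 1.20 in the controls and 0.950 and 0.798 at 2 d, and the ratio for Gapdh on Av2 went the other way, from 0.451 and 0.373 to 0.684 and 0.771. These ratios are not read here as a measure of RNA breakdown, and their part in the results was not tested.

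Transcripts of the contractile apparatus were lower at 2 d, with some exceptions among the brightest. Of 11 genes of the thick filament and M line tested on Av2, 8 fell and 0 rose, with a median log2 change of -2.80, and on A 8 of 10 fell, with a median of -3.19. All 8 fell on both versions. The counts of each list, here and below, stand beside all genes tested, of which 18.6% fell and 21.1% rose on Av2. On A these shares were 25.7% and 23.3%. The largest fall of the list on Av2 was that of Myh7, the slow myosin heavy chain. Its intensity on Av2 was 12582 and 20200 in the controls and 1268 and 59.7 at 2 d, and on A it was 8285 and 16153 in the controls and at the floor on both 2 d arrays. The 2 d and control arrays did not overlap, and 1 of the 2 d arrays on Av2 lay far below the other. The fall was 55.7-fold on Av2 (log2 change -5.80 ± 0.932 SE, adjusted p = 7.5e-06 in limma) and at least 17.9-fold on A (adjusted p = 0.005). Without 2 d replicate 1 it was at least 246-fold on Av2, and without replicate 2 it was 12.6-fold.

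Myom1 encodes myomesin, which ties thick filaments together at the M line. Its intensity on Av2 was 15014 and 18927 in the controls and 504 and 534 at 2 d, a fall of 32.5-fold (log2 change -5.02 ± 0.406 SE, adjusted p = 3.3e-11 in limma), and on A the fall was at least 22.7-fold. Both 2 d arrays lay at one level, far under both controls. Myh1, the fast myosin of type 2X fibres, went from 29497 and 31938 to 2303 and 2367 on Av2 and from 31070 and 31311 to 3104 and 3240 on A. Those falls were 13.2-fold and 9.83-fold (adjusted p = 1.6e-08 and 0.0019). Myom2 and Mybph, 2 further proteins of the thick filament lattice, fell by 6.69-fold and 6.94-fold on Av2 and at least 8.46-fold and 8.33-fold on A.

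Of 19 genes of the thin filament and Z disc, 15 fell and 1 rose on Av2 (median -2.48), and 11 of 15 fell on A, all 11 of them on both versions. Tpm2, the beta chain of tropomyosin, which lies along actin, went from 33083 and 33931 to 2987 and 3076 on Av2. The fall was 11.1-fold there and 10.0-fold on A (adjusted p = 2.3e-10 and 0.00021 in limma). Myoz1, a Z disc protein that binds calcineurin, fell by 11.8-fold and 8.42-fold, and Ldb3, which binds alpha-actinin at the Z disc, fell by 22.4-fold on Av2, from 34187 and 37580 to 1334 and 1913. The exception that rose was Tpm1, the alpha chain of tropomyosin, at 792 and 968 in the controls and 1844 and 2528 at 2 d on Av2 (2.47-fold, adjusted p = 1.3e-06). The fast troponins fell: Tnnt3 by 4.53-fold and 3.01-fold on Av2 and A, and Tnni2 by 5.05-fold and 13.9-fold. The A call for Tnnt3 was lost without either control array or without 2 d replicate 5, and the sizes for Tnni2 differed by more than 2-fold between the versions.

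**Figure D2:**
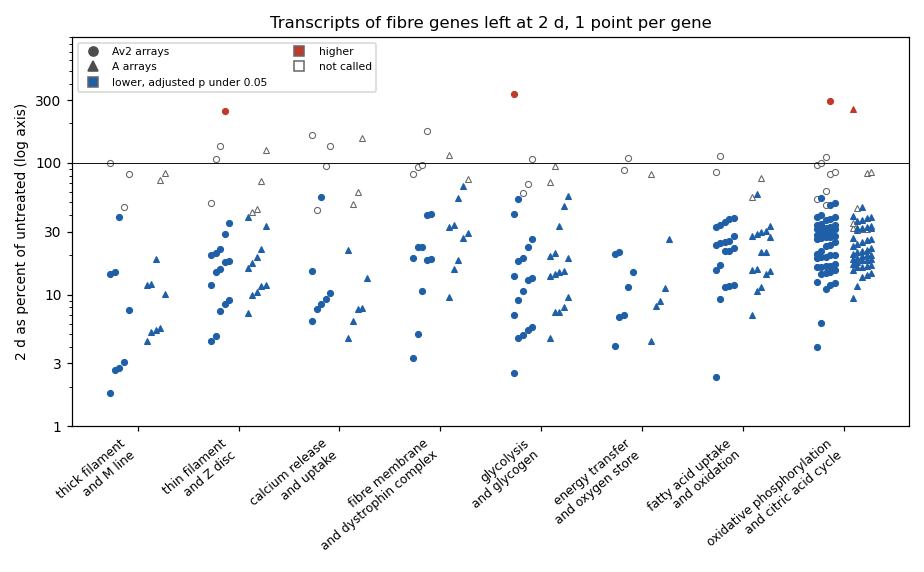
Level at 2 d as a percent of untreated (log axis), taken from the fitted log2 change, for each gene of 8 lists of fibre genes. Circles are Av2 and triangles are A, and a percent is only a bound where a group lay at the floor on both arrays. Blue points passed as lower, red points as higher and open points did not pass. List medians lay between 13.7% and 27.6% on Av2, and open points near 100% appear in most lists.

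Genes of calcium release and uptake showed the same direction in the members that passed. Of 11 tested on Av2, 7 fell and 0 rose (median -2.72), and 6 of 9 fell on A, all 6 on both versions. Ryr1, the channel that releases calcium from the reticulum, went from 31049 and 39447 to 1872 and 2561 on Av2 and from 26873 and 29157 to 1687 and 1813 on A. Both arrays of 2 d lay far below both controls on each version. The fall was of one size on both (log2 change -4.00 ± 0.352 SE on Av2, adjusted p = 1.8e-10, and -4.00 ± 0.449 SE on A, adjusted p = 0.00042, both in limma). Cacna1s, the voltage sensor that opens Ryr1, went from 7986 and 10149 to 718 and 797 on Av2, an 11.9-fold fall. Casq1, which binds calcium inside the reticulum, fell by 10.9-fold and 12.7-fold, and on A by 8.46-fold without 2 d replicate 5 and 19.0-fold without replicate 6. Hrc, a further calcium-binding protein of the reticulum, fell from 9372 and 9176 to 661 and 776 on Av2 (log2 change -3.69 ± 0.273 SE), and by 21.4-fold on A.

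Among 14 genes of the fibre membrane and dystrophin complex, 10 fell and 0 rose on Av2 (median -2.12), and 9 of 11 fell on A, all 9 on both. Sgca, alpha-sarcoglycan of the dystrophin complex, went from 9059 and 9095 to 367 and 574 on Av2, a 19.8-fold fall (adjusted p = 4.3e-10 in limma), and fell by at least 10.4-fold on A. Aqp4, a water channel of fast fibres, stood at 2151 and 1798 in the controls and at the floor on both 2 d arrays, a fall of at least 30.4-fold on Av2 and at least 3.42-fold on A. Capn3, a muscle protease, fell by 5.47-fold and 5.51-fold. Of 13 genes of the neuromuscular junction and excitation, 7 fell and 1 rose on Av2 (median -0.73), and 5 of 9 fell on A. The shares of all genes that fell were 18.6% on Av2 and 25.7% on A. With the A floor raised 2 times, the falls of this list on A were 2. Clcn1, the chloride channel that settles the membrane after an impulse, fell from 4666 and 4128 to 91.2 and 360 on Av2, which is 24.2-fold, or 12.2-fold without 2 d replicate 1 and 48.2-fold without replicate 2. Ache, which breaks down acetylcholine at the junction, fell by 16.7-fold on Av2. The gene that rose was Chrng, the receptor subunit of fetal and denervated muscle, from 90.3 and 48.4 to 397 and 163 on Av2 (log2 change 1.74 ± 0.504 SE, adjusted p = 0.0066), and lay at the floor on all 4 A arrays.

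The enzymes that supply the fibre with energy were lower for most members of 4 lists. Of 21 genes of glycolysis and glycogen, 17 fell and 1 rose on Av2 (median -2.86), and 15 of 17 fell on A. Of all genes, 18.6% fell on Av2 and 25.7% on A. Pgam2, whose promoter is shown above, stood at 38937 and 42568 in the controls and 1639 and 2192 at 2 d on Av2, and at 35247 and 34674 against 1615 and 1629 on A. The arrays of each group were close together and the groups far apart. The fall was 21.5-fold on Av2 (log2 change -4.43 ± 0.521 SE, adjusted p = 4.2e-08 in limma) and 21.6-fold on A (adjusted p = 0.0031). Phkg1, the catalytic subunit of phosphorylase kinase, fell from 4991 and 5545 to 119 and 148 on Av2, a 39.6-fold fall, and by at least 12.5-fold on A. Its regulatory partner Phka1 fell by 17.8-fold and at least 7.27-fold. Pfkm, the muscle phosphofructokinase, fell by 9.37-fold and 10.5-fold. Gpd1, which passes electrons from glycolysis to mitochondria, fell by 14.3-fold and 13.5-fold, and Slc2a4, the insulin-responsive glucose transporter, by 18.5-fold and at least 13.6-fold. Pgm2 was the member that rose, from 58.3 and 115 to 312 and 270 on Av2.

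Of 9 genes of energy transfer and oxygen store, 7 fell on Av2 (median -2.75) and 5 of 6 on A. Ak1, adenylate kinase, which recycles ADP, had the largest fall, by the smaller of its changes on the versions, of the genes above the floors on all 8 arrays. It stood at 31934 and 28750 in the controls and 912 and 1659 at 2 d on Av2, and at 25122 and 24122 against 780 and 1533 on A. The groups did not overlap on either version, and the fall was 24.6-fold on Av2 (log2 change -4.62 ± 0.380 SE, adjusted p = 4.5e-11 in limma) and 22.5-fold on A (adjusted p = 0.0012). Mb, myoglobin, which stores oxygen, went from 15280 and 24871 to 1588 and 1152 on Av2, a 14.4-fold fall. On A it went from 17067 and 17605 to 2533 and 940, an 11.2-fold fall, or 18.4-fold without 2 d replicate 5 and 6.84-fold without replicate 6. Ckmt2, the mitochondrial creatine kinase, fell by 14.9-fold and 12.2-fold, and Ckm, the cytosolic muscle form, by 6.71-fold on Av2.

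Of 59 genes of the respiratory chain and citric acid cycle, 50 fell and 1 rose on Av2 (median -1.86), and 43 of 51 fell and 1 rose on A (median -2.11). The shares that fell can be read against the 18.6% and 25.7% of all genes. Of these, 42 fell and 1 rose on both versions. Cox7a1, the heart and muscle form of a cytochrome oxidase subunit, fell from 4111 and 3277 to 169 and 129 on Av2, a 24.9-fold fall. On A the fall was at least 7.39-fold, and that call was lost without control replicate 1 (adjusted p = 0.054 in limma). Cox8b, another muscle subunit, fell from 20345 and 16064 to 1221 and 1000 on Av2. Sucla2, a subunit of succinyl-CoA ligase, fell by 9.16-fold and 8.65-fold, and Idh3a, a subunit of isocitrate dehydrogenase, by 8.42-fold and at least 10.7-fold.

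Of 22 genes of fatty acid uptake and oxidation, 20 fell on Av2 (median -2.05) and 16 of 18 on A, all 16 on both versions. Fabp3, the carrier of fatty acids in muscle and heart, stood at 7371 and 7265 in the controls and 182 and 164 at 2 d on Av2, a 42.3-fold fall (log2 change -5.40 ± 0.491 SE, adjusted p = 3.2e-10 in limma), and fell by at least 14.3-fold on A. Pdk4, which holds back carbohydrate oxidation, fell by 10.9-fold and 8.83-fold, Hadh of beta-oxidation by 8.51-fold and at least 9.42-fold, and Acadm by 8.82-fold and 6.57-fold. Outside the lists, Rtn2, a protein of the endoplasmic reticulum, went from 23567 and 26074 to 997 and 1325 on Av2, a 21.6-fold fall, and fell by 25.3-fold on A. Fmod, fibromodulin, a matrix protein of tendon and connective tissue, fell by 11.1-fold and 12.3-fold, from 16197 and 13424 to 1303 and 1354 on Av2. It is not a product of the fibre, and other markers of fibroblasts and tendon are given further on.

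The transcripts of slow fibres differed between the 2 arrays of 2 d. Myl2, the slow regulatory light chain, was 11731 and 16136 in the controls on Av2 and 1043 and 129 at 2 d, and on A it was 11823 and 13412 against 704 and 36.1. Myl3, the slow essential light chain, was 17439 and 16480 against 1315 and 170 on Av2 and 18523 and 18369 against 1406 and 55.4 on A. Tnnt1, slow troponin T, was 19885 and 31360 against 3564 and 404 on Av2. In each case 2 d replicate 1 on Av2, and replicate 5 on A, lay above its partner, and all 2 d values lay below all controls.

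The falls on Av2 were 37.5-fold for Myl2, 35.9-fold for Myl3 and 20.8-fold for Tnnt1 (adjusted p = 2.9e-06, 1.2e-05 and 7.1e-05 in limma). Without replicate 1 they were 107-fold, 99.9-fold and 61.8-fold, and without replicate 2 they were 13.2-fold, 12.9-fold and 7.01-fold, so their direction and call held without either 2 d array while their size did not. With only the 4 arrays compared in the fit, the Av2 calls were lost (adjusted p = 0.1, 0.098 and 0.15), as was that of Myh7 (adjusted p = 0.15). Tnnc1, Tnni1 and Atp2a2, the slow troponin C, slow troponin I and slow calcium pump, followed the same order, at 851 and 189, 2382 and 684, and 536 and 210 at 2 d on Av2. They fell by 13.3-fold, 6.74-fold and 9.77-fold, with 28.3-fold, 12.6-fold and 15.6-fold without replicate 1 and 6.29-fold, 3.61-fold and 6.11-fold without replicate 2. On A the calls for Myl3, Tnnc1, Tnni1 and Atp2a2 were each lost without at least 1 array. Among the named genes called on Av2, 33 of 213 moved by more than 1.5 times when some 1 array was left out, and 7 of 154 did on A.

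Several of the brightest fibre transcripts did not pass, and they are named here after their values were seen. Acta1, skeletal alpha-actin, stood at 17153 and 31340 in the controls and 21529 and 28570 at 2 d on Av2, and at 17317 and 18088 against 16633 and 30034 on A. The groups overlapped on Av2, and the difference was 0.10 ± 1.36 SE on the log2 scale (adjusted p = 1 in limma). Myh4, the fastest myosin heavy chain, stood at 26483 and 42385 against 25671 and 30007 on Av2 (log2 difference -0.27 ± 0.629 SE, adjusted p = 0.84). Atp2a1, the fast calcium pump, stood at 10931 and 14589 against 17082 and 24894 (0.71 ± 0.820 SE, adjusted p = 0.59). Pkm, pyruvate kinase, stood at 30624 and 32986 against 18539 and 26042 (-0.53 ± 0.408 SE, adjusted p = 0.36), and Myl1, a fast light chain, at 36693 and 42418 against 16781 and 19867 (-1.11 ± 0.447 SE, adjusted p = 0.053). Myl1 passed as lower under 4 alternatives, with adjusted p = 0.049 with the floor raised 2 times, 0.033 with median scaling, 0.035 with only the 4 arrays compared and 0.044 with a variance trend and robust fit. Ldha, lactate dehydrogenase A, stood at 33920 and 40496 against 21655 and 21991 on Av2 (-0.76 ± 0.356 SE, adjusted p = 0.1, and 0.046 with only the 4 arrays compared), and fell on A (-0.84 ± 0.156 SE, adjusted p = 0.0033).

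A p that misses the threshold does not show that these transcripts held their level. The standard errors for Acta1 and Atp2a1 came from differences between the arrays of a group, pooled over all times. Some of these differences were wide: Acta1 stood at 20131 and 4340 at 30 d and at 2635 and 22600 at 40 d. Atp2a1 stood at 8193 and 2302 at 30 d, while its arrays of 40 d were close, at 803 and 856. Against those times as controls, Atp2a1 was higher at 2 d (log2 difference 3.44, adjusted p = 0.00022 in limma). Probe sets of 1 gene also disagreed. The brightest for Pvalb, parvalbumin, stood at 17800 and 27875 in the controls and 7451 and 12605 at 2 d on Av2 (adjusted p = 0.61), while another went from 27235 and 23944 to 623 and 1076 (log2 change -4.96 ± 0.587 SE, adjusted p = 4.4e-08). A second probe set for Atp2a1 stood at 21319 and 25020 against 10118 and 14318 (adjusted p = 0.15). So the name fibre loss covers most fibre genes measured, and for Acta1, Myh4, Atp2a1 and Pkm neither version gave a fall past the threshold on the probe set used.

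**Figure D3:**
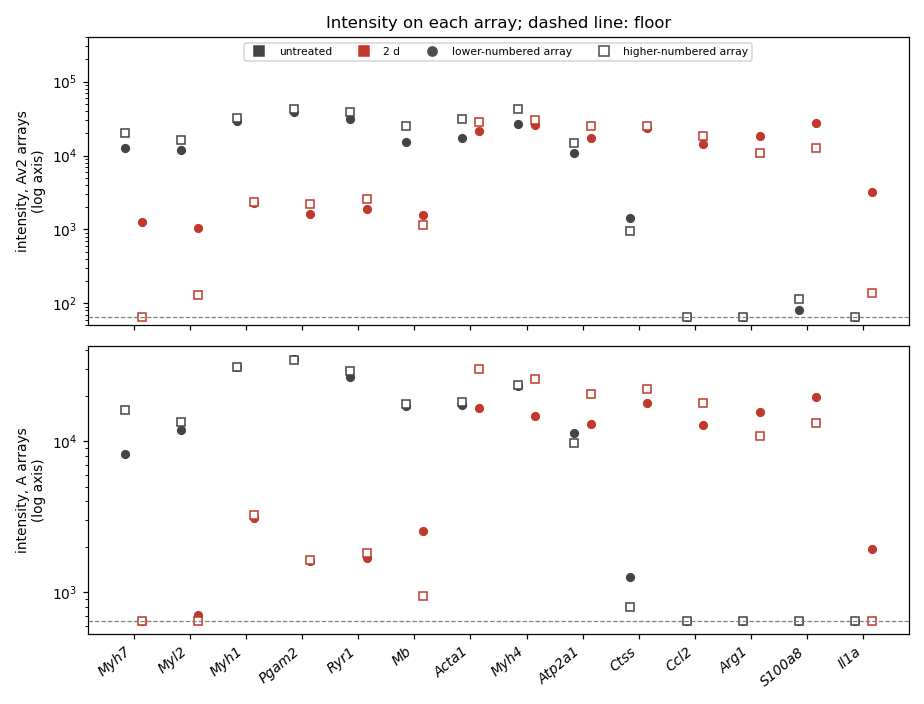
Intensity on each of the 8 arrays (log axes) for 14 genes, with Av2 in the upper and A in the lower panel, untreated arrays in grey and 2 d arrays in red. Filled circles are the lower-numbered and open squares the higher-numbered array of a group, and the dashed lines are the floors of 64.68 and 646.8, to which lower values were raised. Myh7, Myl2 and Il1a separate the 2 arrays of 2 d, while Acta1 and Myh4 overlap with the controls on Av2.

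For 8 of the 19 pairs of isoforms, the muscle form fell and the broadly used form rose on Av2. Some pairs lacked a test of 1 form there, and of all genes 18.6% fell and 21.1% rose. The pairs of Cox6a2, Cfl2 and Slc25a4 divided in this way on A as well. In the others of the 8, a form did not pass on A or had no comparison there. In the latter cases a different probe set read 0 on the A arrays compared, controls included. On Av2, Cox6a2, the muscle form of cytochrome oxidase subunit VIa, went from 41222 and 42924 to 8047 and 7802, and Cox6a1 from 4809 and 3921 to 11892 and 13691. These are a 5.31-fold fall and a 2.94-fold rise (adjusted p = 3e-06 and 3.5e-09 in limma), with 5.03-fold and 2.57-fold on A. Cox6a1 was the only member of the respiratory chain list that rose on both versions. Cfl2 went from 7415 and 8207 to 904 and 931, and Cfl1, the cofilin of non-muscle cells, from 2916 and 2312 to 21908 and 24387. The log2 changes on Av2 were -3.09 ± 0.385 SE and 3.15 ± 0.328 SE, and on A the fall was 6.33-fold and the rise 11.7-fold.

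Pgam1, the broadly used phosphoglycerate mutase, rose from 959 and 737 to 5024 and 3890 on Av2, 5.26-fold, while Pgam2 fell by 21.5-fold. Pfkp rose from 105 and 191 to 1114 and 567 on Av2, 5.61-fold, and did not pass on A (adjusted p = 0.095 in limma), except without 2 d replicate 6 (adjusted p = 0.0052) and with the floor at 0.5 times (adjusted p = 0.0018). Fabp5, the fatty acid carrier of skin and macrophages, went from 264 and 693 to 2776 and 2685 on Av2, a 6.38-fold rise, or 3.94-fold without control replicate 1 and 10.3-fold without replicate 2. Slc2a1, the broadly used glucose transporter, went from 66.4 and 162 to 2135 and 622 on Av2, an 11.1-fold rise that was between 5.98-fold and 20.6-fold without 1 array, and did not pass on A (adjusted p = 0.34). Actn1 rose by 5.10-fold and 3.76-fold, while Actn3, the alpha-actinin of fast fibres, fell by 2.88-fold on Av2 (adjusted p = 0.0057, and 0.089 without 2 d replicate 1) and did not pass on A (adjusted p = 0.084). Slc25a4, the muscle carrier of adenine nucleotides, fell by 4.76-fold and 3.79-fold. Slc25a5 rose by 1.72-fold on Av2, a call lost without control replicate 2 (log2 change 0.66). On A, where another probe set stood for it, Slc25a5 rose by 4.89-fold (adjusted p = 3e-04 in limma).

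Other pairs did not divide in this way. Cox7a2 fell by 2.96-fold on Av2 beside Cox7a1, and Ckb, Cox8a and Car2 did not pass, though Car2 passed as lower without 2 d replicate 1 (adjusted p = 0.0026). Eef1a2, the muscle and nerve elongation factor, fell by 5.66-fold on Av2, and Eef1a1 passed on A alone (adjusted p = 0.04). That call was lost without control replicate 1, control replicate 2 or 2 d replicate 6 (adjusted p = 0.095, 0.19 and 0.24), and under quantile normalization Eef1a1 also passed on Av2 (adjusted p = 0.034). Among the actins, Actg1 rose from 11875 and 9099 to 26982 and 32645 on Av2, 2.86-fold, with 2.74-fold on A, where the call was lost without control replicate 2 (adjusted p = 0.065) or 2 d replicate 6 (adjusted p = 0.062). Actb fell on the probe set used, from 3282 and 4499 to 598 and 556, by 6.67-fold on Av2 and 5.91-fold on A, and the 3′ control probe set for actin on Av2 went from 27733 and 36489 to 529 and 666, while that on A went from 25235 and 26700 to 8839 and 20917. That is the transcript whose 3′ to 5′ ratio moved with the groups, and the part of this in the result was not tested.

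**Figure D4:**
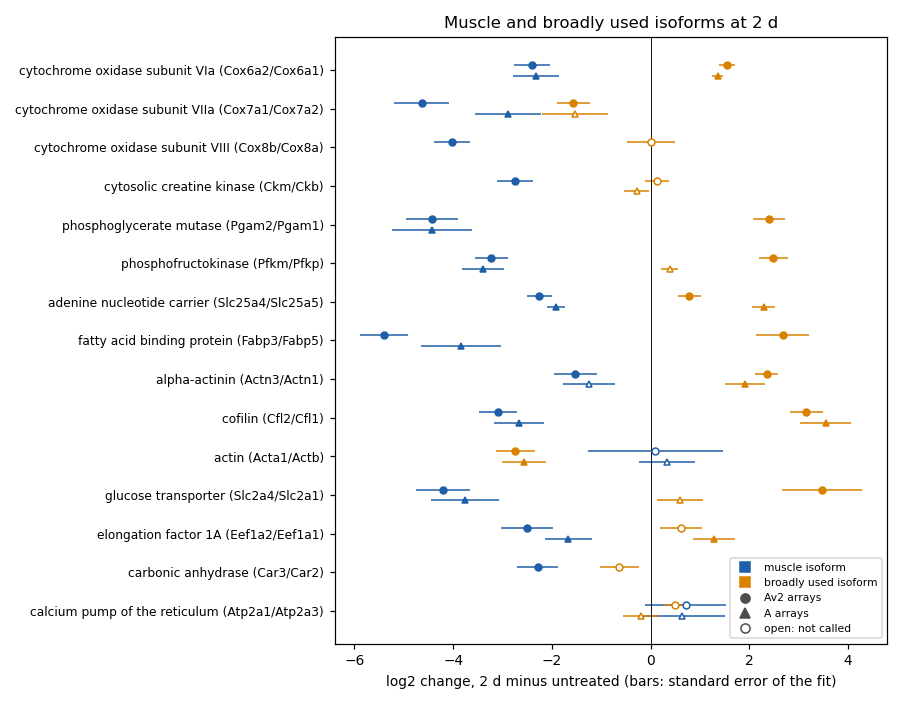
Log2 change at 2 d minus untreated with its standard error for the muscle (blue) and broadly used (orange) isoform of each function with both forms tested on Av2, with circles for Av2 and triangles for A and open symbols for changes that did not pass. For 8 functions the blue symbol lies below 0 and the orange above it on Av2 with both passing, and of the actins the broadly used Actb lies below 0.

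Transcripts of monocytes and macrophages were higher at 2 d. Of 47 tested on Av2, 43 rose and 0 fell, with a median log2 change of 4.09, and on A 32 of 42 rose and 1 fell (median 2.46), all 32 of them on both versions. Against this stand 21.1% and 23.3% of all genes that rose. The summed intensity of the 47 was 27740 and 22750 in the controls and 318400 and 253900 at 2 d on Av2. Ctss, cathepsin S, which cuts antigens in macrophages, went from 1415 and 963 to 23301 and 25007 on Av2 and from 1264 and 800 to 17938 and 22260 on A. Both 2 d arrays stood far above both controls on each version, and the rise was 20.7-fold on Av2 (log2 change 4.37 ± 0.249 SE, adjusted p = 3.7e-14 in limma) and 19.9-fold on A (adjusted p = 8.4e-05).

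Cd68, a glycoprotein of macrophage lysosomes, went from 877 and 538 to 11398 and 13519 on Av2, an 18.1-fold rise, and rose by at least 18.9-fold on A. Ccr2, the receptor that draws monocytes to Ccl2, went from 179 and 64.8 to 10085 and 8145 on Av2, an 84.2-fold rise, or 140-fold without control replicate 1 and 50.7-fold without replicate 2. Tyrobp, an adaptor of macrophage receptors, rose by 48.7-fold on Av2, and Lgals3, galectin 3, by 26.7-fold. Adgre1, the F4/80 antigen that defines mouse macrophages, went from 332 and 159 to 2508 and 2119 on Av2, a 10.0-fold rise. Markers linked with tissue repair were among those that rose. Arg1, arginase, was at the floor in all control arrays and at 18181 and 10912 at 2 d on Av2, at least 218-fold higher (adjusted p = 3.5e-09 in limma), and at least 20.1-fold higher on A. Mrc1, the mannose receptor, rose by 12.2-fold on Av2 and at least 12.9-fold on A, and Chil3 by 97.4-fold and at least 9.37-fold. Tgfbi, a matrix protein induced by TGF-beta, went from 579 and 706 to 18966 and 14476 on Av2, a 25.9-fold rise, with 12.0-fold on A.

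Neutrophil transcripts rose in part. Of 19 tested on Av2, 12 rose and 0 fell (median 2.25), and on A 7 of 12 rose. S100a8, a subunit of the calprotectin complex of neutrophils and monocytes, went from 80.3 and 113 to 27184 and 12836 on Av2, a 196-fold rise (log2 change 7.62 ± 0.807 SE, adjusted p = 6e-09 in limma), and rose at least 25.0-fold on A. Its partner S100a9 was at the floor in the controls and at 13519 and 5541 at 2 d on Av2, at least 134-fold higher. That bound was at least 85.7-fold without 2 d replicate 1 and at least 209-fold without replicate 2. Mmp9, a gelatinase stored in neutrophil granules, rose by 80.4-fold on Av2, and on A its call was lost without 2 d replicate 5 (adjusted p = 0.058) or control replicate 2 (adjusted p = 0.05). Transcripts of primary and secondary granules, which developing neutrophils make in the marrow, were mixed. Lcn2, lipocalin 2 of secondary granules, went from 143 and 157 to 11581 and 3236 on Av2, a 40.8-fold rise, or 21.6-fold without 2 d replicate 1 and 77.2-fold without replicate 2. Prtn3, proteinase 3 of primary granules, went from 93.9 and 41.4, the latter below the floor, to 329 and 299.6 on Av2 (4.03-fold, adjusted p = 0.017 in limma). Its log2 change was 2.01, or 1.74 without control replicate 2. The call was lost in limma with a change of more than 2-fold required (adjusted p = 0.43). On A, all arrays compared lay at the floor. Other granule genes did not pass: Mpo stood at 134 and 297 against 229 and 65.8 on Av2, Elane at 549 and 424 against 754 and 663, and Ltf at 178 and 171 against 514 and 98.8. The summed intensity of the 19 was 84940 on 2 d replicate 1 and 39780 on replicate 2.

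Of 36 cytokines and chemokines, 27 rose and 1 fell on Av2 (median 2.74), and 19 of 26 rose and 1 fell on A, the same counts as on both together. Ccl2, which draws monocytes from the blood, stood at 54.7 and 18.8 in the controls, below the floor, and at 14161 and 18429 at 2 d on Av2. It was at least 250-fold higher on Av2 (adjusted p = 6e-17 in limma) and at least 23.6-fold higher on A (adjusted p = 4.4e-05). Ccl7, its neighbour in function, went from 52.4 and 66.5 to 7704 and 12008 on Av2, a 147-fold rise, and Ccl9 from 645 and 507 to 23568 and 22940, a 40.7-fold rise. Cxcl5, which draws neutrophils, rose by 100.1-fold. Csf1, the growth factor of macrophages, rose by 5.92-fold and 4.41-fold. The gene that fell was Ccl11, which draws eosinophils, from 767 and 641 to 226 and 266 on Av2 and by 1.79-fold on A. Its A call was lost without control replicate 1 (adjusted p = 0.061), and with the floor raised 2 times the change on A was -0.05 (adjusted p = 0.88).

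The interleukin 1 genes and 2 early chemokines followed 1 array of 2 d. Il1b, interleukin 1 beta, was at the floor in the controls and at 8986 and 2509 at 2 d on Av2. Cxcl2 was at 11797 and 952, Ccl3 at 8323 and 1121, and Il1rn, the antagonist of interleukin 1, at 14397 and 2112. Il1a was at 3162 and 136, and Tnf, tumour necrosis factor, at 2072 and 102. In all 6, replicate 1 lay above replicate 2, and on A replicate 5 lay above replicate 6.

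Il1a passed on Av2 (adjusted p = 0.0024 in limma) but not without replicate 1 (adjusted p = 0.36), and the same held for Tnf (adjusted p = 0.027, and 0.75 without replicate 1), which also lost its call without either control array. Cxcl2 and Ccl3 rose by 42.1-fold and 16.9-fold on Av2, or 12.0-fold and 6.19-fold without replicate 1 and 148-fold and 46.0-fold without replicate 2. Il1rn rose by 64.0-fold, or 24.5-fold and 167-fold. For Il1b the rise was at least 73.4-fold, or at least 38.8-fold and 139-fold. On A these 4 passed with all arrays, and each lost its call without replicate 5 or without either control array. Replicate 1 is also the array with more of the slow fibre transcripts and more of the neutrophil ones, and how these go together was not tested.

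Many genes that digest and that move cells also rose. Of 31 genes of the lysosome and phagocytosis, 27 rose and 1 fell on Av2 (median 1.76), and 19 of 23 rose on A. Among all genes, 21.1% rose on Av2 and 23.3% on A. Lgmn, legumain, a lysosomal protease, rose by 13.4-fold on Av2 and 12.0-fold on A. Cstb, an inhibitor of cathepsins, rose by 13.2-fold and 11.7-fold. Of 30 genes of the cytoskeleton of non-muscle cells, 26 rose and 2 fell on Av2 (median 2.15), and 21 of 25 rose and 1 fell on A. Lcp1, the plastin of white blood cells, went from 764 and 578 to 12637 and 16444 on Av2, a 21.7-fold rise, and rose by at least 20.8-fold on A. Of 18 proteases and inhibitors of the matrix, 12 rose and 1 fell on Av2 (median 1.53), and 6 rose and 2 fell of 12 on A (median 0.78). Timp1, an inhibitor of metalloproteinases, went from 1023 and 1377 to 16598 and 16030, a 13.7-fold rise, with 9.01-fold on A, and Adam8, a protease of white blood cells, was at least 169-fold higher on Av2.

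Part of the stress and metal-handling genes rose. Of 13 genes of metal, iron and haem, 7 rose and 0 fell on Av2 (median 1.72), and 5 of 9 rose on A. Hmox1, which breaks down haem, went from 2170 and 1964 to 23013 and 24438 on Av2, an 11.5-fold rise (adjusted p = 6.5e-11 in limma). Mt1, metallothionein 1, went from 1974 and 2169 to 18042 and 25036, a 10.3-fold rise, with 11.2-fold on A. Of 42 stress and immediate early genes, 25 rose and 2 fell on Av2, and 13 of 29 rose and 3 fell on A. Hif1a, which acts in low oxygen, rose by 5.96-fold and 5.86-fold. Of 32 heat shock genes and chaperones, 11 rose and 4 fell on Av2, beside 21.1% and 18.6% of all genes, and 10 rose and 3 fell of 22 on A, with Hsp90aa1, the inducible form of Hsp90, up 8.47-fold and 4.97-fold. Of 33 interferon response genes, 23 rose on Av2 (median 1.56) and 9 of 21 on A. Ifi204 rose by 7.57-fold on Av2 and at least 5.47-fold on A.

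Cell division genes were higher as well. Of 40 genes of DNA replication, 24 rose and 2 fell on Av2 (median 1.47), and 10 of 13 rose on A. Beside this and the mitosis count stand the 21.1% and 23.3% of all genes that rose on Av2 and A. Pcna, the sliding clamp of DNA polymerase, went from 1031 and 818 to 3678 and 3966 on Av2, a 4.16-fold rise, and rose by at least 7.67-fold on A. Mcm5, of the replication helicase, rose by 8.87-fold on Av2. Of 31 genes of mitosis, 27 rose and 0 fell on Av2 (median 2.49), and 9 of 17 rose on A. Ccnb2, cyclin B2, went from 813 and 391.6 to 3215 and 3547 on Av2, a 5.99-fold rise, and rose by at least 3.75-fold on A. Mki67, a marker of dividing cells, went from 33.9 and 73.3 to 930 and 896 on Av2, a 13.3-fold rise, while the higher floor of A allowed only a bound of at least 1.46-fold. With the A floor raised 2 times, the counts on A were 2 for DNA replication and 3 for mitosis. Cdkn1a, p21, which holds back division, rose by 5.19-fold and at least 4.18-fold.

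**Figure D5:**
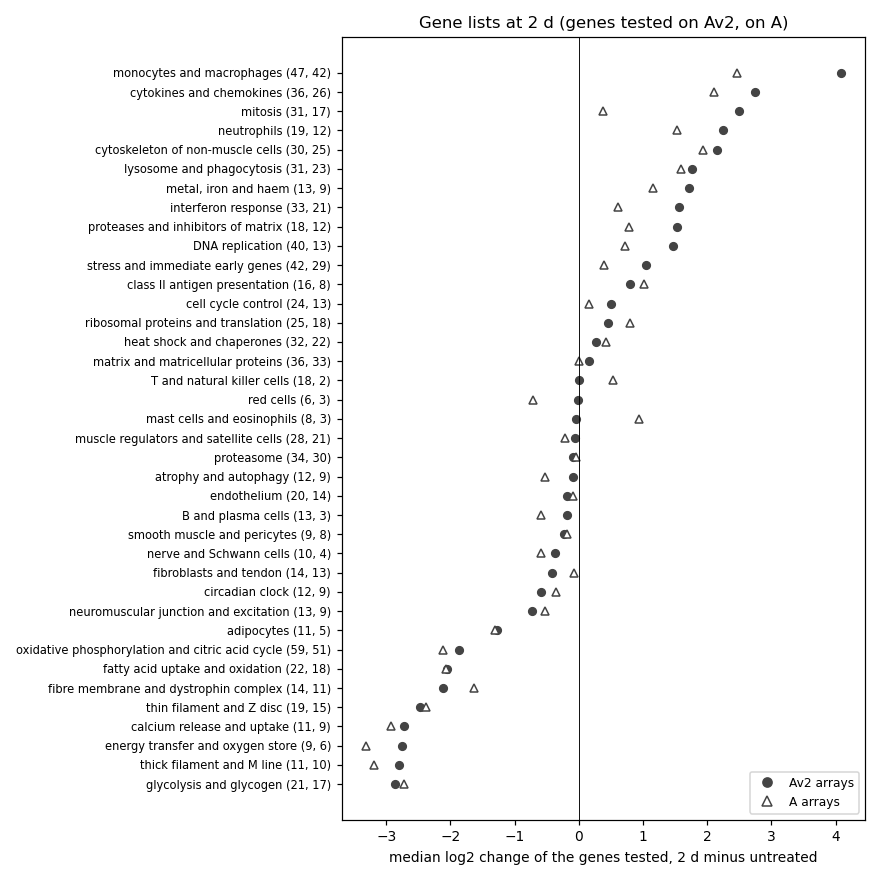
Median log2 change at 2 d minus untreated over the genes tested of each of 38 lists, with filled circles for Av2 and open triangles for A and the numbers tested in brackets. Fibre lists lie at the bottom, with thick filament and M line at -2.80 and -3.19 and glycolysis and glycogen at -2.86 and -2.72, and monocytes and macrophages lie at the top at 4.09 and 2.46.

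The counts for markers of the other resident cells stand beside shares over all genes of 21.1% higher and 18.6% lower on Av2 and 23.3% and 25.7% on A. Of 14 genes of fibroblasts and tendon, 4 rose and 4 fell on Av2, and 3 rose and 4 fell of 13 on A, and their summed intensity was 64790 and 58820 in the controls against 46080 and 47480 at 2 d. Pdgfra, a receptor that defines muscle fibroblasts, rose from 1956 and 1908 to 4308 and 4004 on Av2, 2.15-fold, and at least 4.74-fold on A. Against the arrays of 30 d and 40 d as controls it did not pass on Av2 (log2 difference 0.45, adjusted p = 0.19 in limma). Of 36 matrix genes, 13 rose and 4 fell on Av2, and 10 rose and 2 fell of 33 on A: Col3a1 rose by 2.16-fold and 2.60-fold and Fn1, fibronectin, by 1.86-fold and 2.91-fold, while Col1a1 stood at 29881 and 15832 against 14904 and 19538 (adjusted p = 0.51 in limma). Of 20 endothelial genes, 5 rose and 4 fell on Av2, and 1 rose and 4 fell of 14 on A, with a summed intensity of 21350 and 21630 against 20320 and 22360 on Av2. Aqp1, a water channel of capillaries, fell by 5.02-fold and 4.84-fold, and Eng, endoglin, rose by 3.67-fold and 5.82-fold. The defining genes Cdh5 and Vwf did not pass (adjusted p = 0.15 and 0.90 on Av2).

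Of 9 genes of smooth muscle and pericytes, 0 rose and 4 fell on Av2, and of 10 of nerve and Schwann cells, 0 rose and 1 fell. On A, 2 of 8 and 2 of 4 fell in these lists, beside 25.7% of all genes. Of 11 adipocyte genes, 0 rose and 6 fell on Av2, and 3 of 5 fell on A. Adipoq, adiponectin, went from 3528 and 2464 to 1068 and 1373, a 2.44-fold fall, with 2.48-fold on A. Its A call was lost without control replicate 1 (adjusted p = 0.14) or 2 d replicate 5 (adjusted p = 0.12), and both calls were lost with only the 4 arrays compared (0.079 on Av2 and 0.092 on A). Scd1, a desaturase of fat synthesis, fell by 4.22-fold and 4.18-fold. Cd3e, of the T cell receptor, lay near the floor, and stood at 60.0 and 50.1 in the controls and 88.3 and 69.7 at 2 d on Av2. Among 18 T cell and natural killer genes, 2 rose and 1 fell, and of 13 of B and plasma cells, 0 rose and 1 fell. None of 6 red cell genes passed on Av2 in limma at the adjusted threshold, and their summed intensity was 42530 and 39110 against 30330 and 21600.

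The regulators of muscle identity mostly did not pass at 2 d. Of 28 tested on Av2, 4 rose and 8 fell (median -0.06), and on A 2 rose and 8 fell of 21, beside 21.1% and 18.6% of all genes on Av2 and 23.3% and 25.7% on A. Myod1, which commits cells to muscle, stood at 1839 and 2511 in the controls and 2329 and 2429 at 2 d on Av2 (adjusted p = 0.67 in limma). Myog, which starts their differentiation, stood at 898 and 664 against 1200 and 714 (adjusted p = 0.65). For both, the 2 d arrays overlapped with the controls. Myf6, the regulator kept on in mature fibres, fell from 3240 and 3072 to 517 and 511 on Av2, 6.14-fold (adjusted p = 1.5e-06), and by 4.09-fold on A, a call lost there without any 1 of the 4 arrays.

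Mstn, myostatin, which limits muscle growth, fell from 1865 and 1895 to 161 and 246 on Av2, 9.45-fold, and by at least 4.43-fold on A. Mef2c and Mef2d, partners of the MyoD family, fell by 3.95-fold and 2.87-fold on Av2 and by 7.45-fold and 2.17-fold on A. Id2, which blocks MyoD-type proteins from binding DNA, rose from 638 and 422 to 4029 and 4162 on Av2, 7.89-fold, and by at least 6.93-fold on A. Snai2, a repressor found in satellite cells and fibroblasts, stood at 776 and 524 against 819 and 1505 on Av2 (1.74-fold, adjusted p = 0.0031 in limma). Its call was lost without control replicate 2 (adjusted p = 0.13) or 2 d replicate 2 (adjusted p = 0.26), and on A it did not pass (adjusted p = 0.24), but passed as lower without control replicate 1 (log2 change -0.70, adjusted p = 0.023). Of 12 clock genes, 0 rose and 5 fell on Av2, while on A 2 of 9 fell, below the 25.7% of all genes, and 1 fell on both. Dbp, a clock output factor, fell from 2738 and 2495 to 231 and 299, 9.95-fold, and Nr1d2 by 5.97-fold and at least 5.40-fold, and the hour of sampling is not in the labels.

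The 2 d arrays were also set against those of 1 d and 3 d on Av2, 2 arrays each, labelled ctx1d and ctx3d. Of 11997 probe sets, 10 were higher at 2 d than at both (0.0834%) and 15 were lower than at both (0.125%). Ptx3, a pentraxin that marks microbes and dying cells, stood at 573 and 566 in untreated muscle, 1107 and 1648 at 1 d, 4724 and 3310 at 2 d and 528 and 678 at 3 d. It was higher at 2 d by 1.55 ± 0.406 SE than at 1 d and by 2.72 ± 0.406 SE than at 3 d on the log2 scale (adjusted p = 0.019 and 5.6e-05 in limma). Vegfd, a growth factor of lymph vessels, stood at 332 and 360 at 1 d, 837 and 1063 at 2 d and 562 and 382 at 3 d.

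Tnni1 was lower at 2 d, at 2382 and 684, than at 1 d, at 2068 and 6377, and 3 d, at 6879 and 7600 (log2 differences -1.51 ± 0.398 SE and -2.50 ± 0.398 SE, adjusted p = 0.02 and 0.00014 in limma). Its arrays of 2 d and 1 d overlapped. Epha2, a receptor for ephrins, stood at 59.6 and 71.2 in untreated muscle, 402 and 283 at 1 d, 101 and 124 at 2 d and 405 and 237 at 3 d. Cxcl9, a chemokine induced by interferon gamma, was lower at 2 d, at 38.9 and 85.1, than at 1 d, at 203 and 390 (log2 difference -1.93 ± 0.335 SE), and than at 3 d (-1.33 ± 0.335 SE). Cdkn1a was among the 15, lower at 2 d than at either neighbour (adjusted p = 0.018 and 0.015) while it was higher than in untreated muscle. Without either 1 of the 3 d arrays the 25 became 15, so the number of such probe sets rests on those arrays.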

How the data were processed

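The deposited values, 1 file per array version, were taken to be linear intensity per probe set, scaled by the authors to a common mean, as the values show. On A, 16% of them were below 0. The software behind them is not given in the sources used here. Values were raised to a floor (64.68 on Av2, the 20th percentile of the median array, and 646.8 on A, 2 times the root mean square of values below 0) and put on the log2 scale. The 66 control probe sets were left out. Probe sets above the floor on 2 or more arrays were tested. limma 3.58.1 in R 4.3.3 was fitted with 1 mean per group over all 54 Av2 arrays (27 groups, 27 residual degrees of freedom) and all 12 A arrays (6 groups, 6 residual degrees of freedom), with Benjamini-Hochberg adjustment over all probe sets tested. With 2 arrays per group, their number limits the precision.

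Gene names came from the platform annotation, which gives 1 symbol for 10833 Av2 probe sets, several for 396 and none for 1193. A gene was represented by its brightest probe set, the same on both versions for 3712 of 3882 genes. A fold against a group at the floor on both arrays is a lower bound, written as at least. The 38 lists (1029 entries) and the comparison were chosen with earlier results of these data known. Named genes were the 10 largest agreed rises and falls above the floors, the 5 largest of each at the floor on A, up to 3 per list called on both versions and 2 on Av2 alone, the isoform pairs, a fixed set of regulators and up to 5 of each direction against 1 d and 3 d. Other genes were named after their values were seen. Same-numbered control and 2 d arrays of Av2 did not deviate together (r = -0.0068 over 11997 probe sets). Alternatives changed the scaling, floor, filter, probe set rule, variance model, arrays fitted, control arrays and required size, and left out each array in turn. The fit was tested on simulated data. Promoters are RefSeq's.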

Additional observations from a re-analysis of the deposited data

Results flagged for a closer look

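On the 2 array versions, 9 probe sets passed in opposite directions, each in limma on its own version at an adjusted p under 0.05. The difference between the versions was not tested itself. Cd9, a tetraspanin of many cell surfaces, went from 2276 and 2113 in the controls to 5869 and 3088 at 2 d on Av2, and from 8739 and 8934 to 5700 and 4106 on A. Its log2 changes were 0.96 on Av2 and -0.87 on A, and the Av2 call was lost without either control array or without 2 d replicate 1. Igfbp6, which binds insulin-like growth factors, changed by -0.76 and 0.76, from 3958 and 3266 to 2130 and 2124 on Av2 and from 1024 and 371 to 1516 and 1250 on A. The probe set with no named gene changed by -0.81 and 1.78. The log2 changes on Av2 and A were 1.22 and -0.91 for Yes1, 1.08 and -0.78 for Spata6, 0.70 and -0.61 for Gpn2, 0.58 and -0.62 for Clcn7 and 0.64 and -0.55 for Eri2. For Acot7 the change was 0.62 on Av2, from 878 and 841 to 1324 and 1309, and the A values went from 2221 and 1641 to 685 and 848. For Yes1, Gpn2 and Eri2 the 2 d arrays of A lay at the floor.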

How the results depend on the processing

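With a change of more than 2-fold required of the test itself, 1270 probe sets passed on Av2 and 383 on A, 323 passed on both in 1 direction and 181 agreed in size too, against 4196, 2305, 1851 and 1087. With no filter on dim probe sets, 1523 passed on A and 716 agreed in direction and size. With the floors raised 2 times, 625 agreed in direction and size. Fitting only the 4 arrays compared gave 2839 on Av2 and 2322 on A. Leaving out 1 array at a time gave 3455 to 3558 on Av2, 1675 to 1833 on A, 1404 to 1720 on both and 773 to 1001 in direction and size. The probe sets set apart from 1 d and 3 d numbered 15 to 33, and 15 without 3 d replicate 1 or without 3 d replicate 2, against 25. With the replicate block on Av2, 4215 passed, 1855 on both, 1090 in direction and size, 27 against 1 d and 3 d, and 327 list calls against 328, and no named call changed. Same-numbered arrays did not deviate together, so the numbers do not show a pairing, and on A the groups share no number. With the A floor raised 2 times, list counts on A went from 5 to 2 for falls at the neuromuscular junction, from 7 to 4 for neutrophil rises, from 10 to 2 for DNA replication and from 9 to 3 for mitosis. Averaging a gene's probe sets took the falls among heat shock genes on Av2 from 4 to 7, and left 7 isoform pairs divided, against 8, with 9 under quantile normalization. Of 408 named combinations of gene and version, 252 kept their side of the threshold under every alternative, and none reversed. The required 2-fold change lost 50 named calls on Av2 and 67 on A, and fitting only the 4 arrays lost 52 and 13. The causes were not tested, beyond fewer arrays in the fit. On A, the high floor leaves changes of dim transcripts as bounds.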
